A study of Mus musculus with 221 samples.

Results

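The genes described here carry glucose and pyruvate from uptake to the citric acid cycle. They were chosen by name as a module: the transporters and enzymes of glucose uptake and glycolysis, lactate dehydrogenase with the lactate and pyruvate carriers, pyruvate dehydrogenase with its kinases, and enzymes of the cycle itself. All 43 listed genes were among the 55291 genes of the count table, and 42 of them passed the filter on low counts that left 14820 genes for testing.

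Glycolysis splits glucose into pyruvate in the cytosol, pyruvate enters mitochondria through a carrier, and pyruvate dehydrogenase turns it into the acetyl-CoA that feeds the citric acid cycle. The cleavage-stage mouse embryo is known for living on pyruvate and lactate rather than on glucose, which it takes up in quantity only later. Lactate dehydrogenase exists as mixtures of an LDHA and an LDHB chain, and LDHB has long been known as the form stored in the mouse egg.

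RNA was profiled in single early 2-cell embryos made by in vitro fertilization. Males on a low-fat diet (LFD) sired 99 of them, and males on a high-fat diet (HFD) sired the rest, 55.2% of all embryos. Sires were C57BL/6N males, and oocytes came from superovulated C57BL/6N-mtST females, so that embryos of both groups had C57BL/6N nuclear DNA and mitochondrial DNA of the Staudach (ST) line. The sperm of both groups was frozen and thawed, and fertilized oocytes of both groups were kept in HTF medium overnight before single embryos were lysed. Few males served each diet, with other males on each date, and the labels give neither sire, date nor sex of an embryo, so that p-values count embryos of 1 sire as independent. Each library holds a whole 2-cell embryo, so that its cells cannot be told apart. Levels are shares of the counts of a library and not amounts of RNA per cell. Polyadenylated RNA was copied by the Smart-seq2 protocol.

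Total counts per embryo ran from 1937251 to 17246791 (median 5706066), and 8 libraries, 4 of each diet, had fewer than 15000 genes with a count. The 16 markers of the 2-cell stage and the 14 of the oocyte were above 0 in the median embryo of both diets. Of 12 markers of cumulus and granulosa cells, 5 had a median above 0 in HFD and 4 in LFD embryos, and Has2 and Fshr were at 0 in the median. Kitl had medians of 6.81 CPM in HFD and 5.9 in LFD embryos, Cyp19a1 of 6.64 and 6.2, Tnfaip6 of 4.94 and 4.15 and Star of 2.14 and 2.39. The summed level of 14 macrophage markers reached 12.84 log2 CPM in HFD embryos and 7.33 in LFD embryos, with medians of 6.75 and 6.65.

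Promoters are shown for the lactate dehydrogenase pair, whose transcript levels differ most among the abundant paralogs, and for the X-linked members, which all had negative slopes on the Y-linked level as described further on. Each sequence is the 250 bases before the RefSeq transcription start in GRCm38.p6, read 5′ to 3′ on the gene's strand. The windows lie at chr6:142507958-142508207 on the minus strand for Ldhb, chr7:46845554-46845803 on the plus strand for Ldha (the first of 2 listed windows), chrX:106186850-106187099 on the plus strand for Pgk1, chrX:160138431-160138680 on the minus strand for Pdha1, chrX:73786898-73787147 on the minus strand for Idh3g and chrX:93832151-93832400 on the minus strand for Pdk3. Capitals mark matches, on either strand, to 4 short motifs: CACGTG (an E-box), GGGCGG (a GC box), the CCAAT box and the TATAAA form of the TATA box. None of these contains another.
Ldhb: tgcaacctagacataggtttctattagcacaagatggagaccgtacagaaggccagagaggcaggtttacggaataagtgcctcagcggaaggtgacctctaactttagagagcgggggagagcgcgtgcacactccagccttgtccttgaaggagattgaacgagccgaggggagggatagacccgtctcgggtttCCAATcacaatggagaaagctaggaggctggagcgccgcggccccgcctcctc
Ldha: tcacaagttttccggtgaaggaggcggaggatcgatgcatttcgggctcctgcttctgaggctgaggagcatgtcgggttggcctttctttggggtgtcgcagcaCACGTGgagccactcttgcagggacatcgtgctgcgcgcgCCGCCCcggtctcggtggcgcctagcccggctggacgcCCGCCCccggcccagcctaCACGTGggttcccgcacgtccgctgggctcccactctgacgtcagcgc
Pgk1: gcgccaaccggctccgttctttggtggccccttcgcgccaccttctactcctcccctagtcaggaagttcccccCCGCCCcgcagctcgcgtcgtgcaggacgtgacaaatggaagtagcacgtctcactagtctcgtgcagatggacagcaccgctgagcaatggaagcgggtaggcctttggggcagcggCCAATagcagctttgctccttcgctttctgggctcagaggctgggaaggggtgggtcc
Pdha1: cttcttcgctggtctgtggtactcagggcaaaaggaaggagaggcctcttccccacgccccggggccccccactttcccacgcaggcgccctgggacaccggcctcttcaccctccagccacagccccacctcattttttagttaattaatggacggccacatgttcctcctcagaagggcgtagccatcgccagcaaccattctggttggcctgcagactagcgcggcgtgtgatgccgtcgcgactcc
Idh3g: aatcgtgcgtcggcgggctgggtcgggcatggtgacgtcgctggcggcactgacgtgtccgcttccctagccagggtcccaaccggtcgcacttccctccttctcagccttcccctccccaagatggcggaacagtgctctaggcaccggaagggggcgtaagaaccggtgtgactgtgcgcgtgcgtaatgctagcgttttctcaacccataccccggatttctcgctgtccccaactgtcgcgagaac
Pdk3: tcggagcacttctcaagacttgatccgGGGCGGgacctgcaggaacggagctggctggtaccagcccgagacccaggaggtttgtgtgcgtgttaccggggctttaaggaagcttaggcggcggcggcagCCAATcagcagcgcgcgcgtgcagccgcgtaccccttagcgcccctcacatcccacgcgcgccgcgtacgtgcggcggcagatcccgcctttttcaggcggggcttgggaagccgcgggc

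The Ldha window held CACGTG at 2 positions and GGGCGG at 2, and the Ldhb window held CCAAT at 1 position and neither of the other motifs. Pgk1 and Pdk3 each had 1 GGGCGG and 1 CCAAT, while the windows of Pdha1 and Idh3g had no match. RefSeq windows were matched for 40 of the 43 genes, all but Slc2a3, Slc16a7 and Idh3a. Of these 40, 25 held GGGCGG (62.5%), 18 held CCAAT (45%), 4 held CACGTG (10%) and 0 held TATAAA. Over 32851 windows of the same length the shares were 32.7%, 33.8%, 6.02% and 12.4%. The 2 sets are unlike, as members were counted by their first listed window and the 32851 hold every listed window of each gene. A match is a run of letters and was not tested as a binding site.

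The first question was which steps of the route the early 2-cell embryo expresses. Levels are given as CPM per kb, the counts in each 1000000 of a library divided by the exonic length of the gene in kb. A gene was taken as expressed with a mean of at least 1 CPM per kb and a count in at least 50% of the embryos. By this rule 39 of 43 members were expressed, beside 12593 of the 14820 genes past the filter. The members not expressed were Slc16a3, Slc16a7, Idh2 and Suclg1. Every step of the route had at least 1 expressed gene. The median of the 43 mean levels was 12.7 CPM per kb, beside 4.56 over the 14820 genes past the filter. Exonic length here joins the exons of all annotated transcripts, which lowers the value of a gene with long unused forms.

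**Figure D1:**
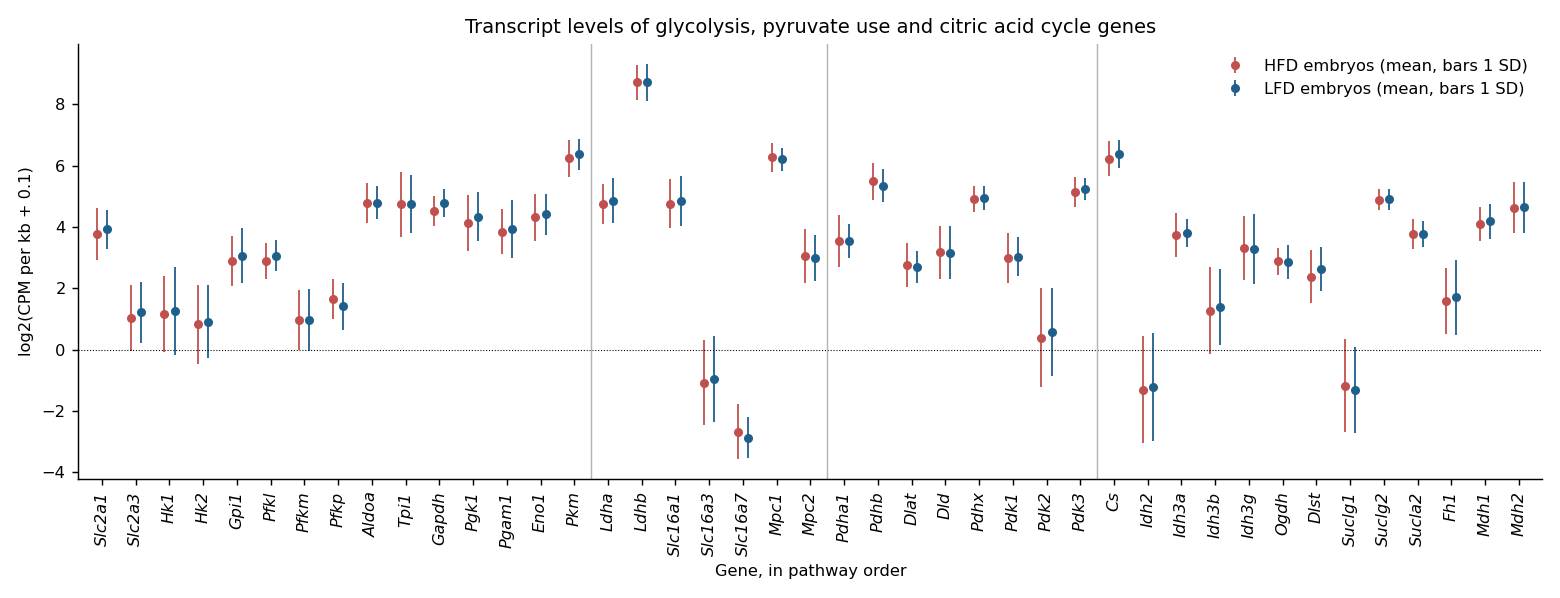
Mean level of each gene in HFD (red) and LFD (blue) embryos as log2(CPM per kb + 0.1), with bars of 1 SD over embryos, in pathway order; grey lines separate uptake and glycolysis, lactate and pyruvate transport, pyruvate dehydrogenase, and the citric acid cycle. Ldhb lies highest at 8.72 and Slc16a7 lowest at -2.76 over all embryos, and the 2 diets lie within 1 SD of each other throughout.

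Slc2a1 encodes the widely expressed glucose transporter GLUT1. Its lowest, median and highest values were 0, 14.9 and 34.1 CPM per kb in HFD and 1.34, 16.1 and 34.2 in LFD embryos. Slc2a3, the high-affinity transporter GLUT3, had medians of 2.25 in HFD and 2.51 in LFD embryos. Slc2a1 was the higher of the pair in all but 2 embryos. Beyond the members, the glucose transporter genes Slc2a8 and Slc2a10 were expressed by the same rule, with medians of 3.45 and 1.07 over all embryos. Slc2a2, Slc2a4 and Slc2a5 were not expressed.

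Hexokinase, the enzyme that traps glucose in the cell, had the lowest mean level per kb in glycolysis. Hk1 and Hk2 summed to 5.27 CPM per kb ± 2.7 (SD over all embryos). The next lowest step, Gpi1 at 8.60 ± 3.29, overlapped with it in range. The rank also depends on exonic length, 8532 bases for Hk1 and 5969 for Hk2 beside 1982 for Pgam1. Without division by length, the average log2 CPM from edgeR was 4.68 for Hk1, 3.79 for Hk2 and 5.03 for Pgam1. The levels of Hk1 ran from 0 to 9.19 in HFD embryos (median 2.54) and from 0 to 12.2 in LFD embryos (median 2.74). Those of Hk2 ran from 0 to 6.75 (median 2.10) and from 0 to 8.93 (median 2.06). Hk1 and Hk2 did not differ beyond their spread, as Hk1 was the higher in 56.1% of embryos and the mean log2 difference of 0.35 was smaller than its SD of 1.47.

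Gpi1, which turns glucose-6-phosphate into fructose-6-phosphate, had medians of 7.98 CPM per kb in HFD and 8.75 in LFD embryos. Phosphofructokinase, the committed step, summed to 13.7 ± 3.77, of which Pfkl, the liver-type subunit, made up 60.1% ± 10.7. Pfkl had medians of 7.55 and 8.40 in HFD and LFD embryos, the platelet-type Pfkp had 3.24 and 2.65, and the muscle-type Pfkm had 2.01 and 2.00. Per kb, Pfkl exceeded Pfkp in 216 embryos, whereas Pfkp and Pfkm did not differ beyond their spread. These orders and the share of Pfkl depend on exonic length, 6675 bases for Pfkl, 13401 for Pfkp and 3340 for Pfkm. Without division by length, Pfkl and Pfkp did not differ beyond their spread, whereas Pfkp exceeded Pfkm beyond it.

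Per kb, the enzymes of 3-carbon sugars each had a higher mean level than hexokinase and phosphofructokinase, although the ranges over embryos overlapped. The nearest was Pgam1, at 16.6 ± 7.11 beside 13.7 ± 3.77 for phosphofructokinase, which is within the spread. This order depends on division by length. In average log2 CPM from edgeR, Pfkl alone stood at 5.78, above Pgam1 at 5.03 and Pgk1 at 5.60. The other genes of this paragraph lay above Pfkl, from 6.42 for Tpi1 to 8.70 for Pkm. Aldoa (aldolase A) had medians of 28.1 CPM per kb in HFD and 30.3 in LFD embryos, Tpi1 (triose phosphate isomerase) 28 and 27.4, and Gapdh (glyceraldehyde-3-phosphate dehydrogenase) 24.2 and 28.5. Pgk1 (phosphoglycerate kinase, the first step that yields ATP) had 18.1 and 21.8, Pgam1 (phosphoglycerate mutase) 15.2 and 16.5, and Eno1 (enolase) 22.2 and 22. Pkm, the pyruvate kinase that ends glycolysis, stood at 84.2 in HFD embryos (range 11.2 to 157.1) and 87 in LFD embryos (range 14.7 to 165.9). Pkm and hexokinase thus had the highest and the lowest mean level per kb of the pathway, and the place of hexokinase depends on division by length. Several of these genes have processed copies elsewhere in the genome: of stretches of 31 bases, 54.7% of Pgk1, 37.1% of Pgam1, 34.7% of Pkm, 28.5% of Eno1 and 28.1% of Gapdh occur in another annotated transcript, and reads that aligned to several places were left out, so these levels are uncertain.

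Ldhb was the most abundant member. Its lowest, median and highest levels were 194.1, 402.3 and 1987 CPM per kb in HFD and 177.8, 402.8 and 1522 in LFD embryos. Ldha, the form that prevails in skeletal muscle, had 6.03, 27.3 and 77.6 in HFD and 4.88, 32 and 58.9 in LFD embryos. Ldhb was above Ldha in every embryo, and no Ldha value reached the lowest Ldhb value. The mean log2 difference was 3.92 ± 1.02 (SD), a 15.1-fold higher level, and Ldhb made up 92.7% ± 3.75 of the pair. The difference of the levels without division by length was 2.85. Ldhb shares 33% of its stretches of 31 bases with Gm5514, and Ldha 19.6% with other transcripts.

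Lactate and pyruvate cross the plasma membrane through monocarboxylate transporters. Slc16a1 (MCT1) had medians of 30.6 CPM per kb in HFD and 32.3 in LFD embryos and made up 97.5% ± 3.01 of the summed level of its group. Slc16a3 (MCT4) had a count in 181 embryos and medians of 0.454 and 0.514. Slc16a7 (MCT2, which has a high affinity for pyruvate) had a count in 45.7% of embryos, medians of 0 and highest values of 2.94 and 0.436, and was the 1 member that failed the low-count filter. Slc16a1 exceeded Slc16a3 in every embryo.

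The mitochondrial pyruvate carrier is a dimer of MPC1 and MPC2. Mpc1 had a lowest, median and highest level of 33.5, 78.4 and 308.1 CPM per kb in HFD and of 38.4, 74 and 199.8 in LFD embryos. Mpc2 had 0.451, 9.16 and 25.1 in HFD and 0.900, 8.13 and 34.3 in LFD embryos. The partners differed in every embryo, by 3.22 ± 0.69 on the log2 scale, and by 1.42 without division by length. Mpc1 is uncertain, because 23.1% of its exons lie opposite to 4930506C21Rik and Smart-seq2 does not mark strand.

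All subunits of the pyruvate dehydrogenase complex were expressed. Pdhb, the beta subunit of its first enzyme, had medians of 49.2 CPM per kb in HFD and 42.4 in LFD embryos, Pdhx, which anchors the third enzyme, 29.9 and 30.6, and Pdha1, the alpha subunit, 12.5 and 11.7. Dld, the third enzyme shared with oxoglutarate dehydrogenase, had 9.53 and 9.58 and Dlat, the second enzyme, 7.11 and 6.84. Within this complex Pdhx exceeded Pdha1 by 1.38 ± 0.88 (log2), and the other neighbours did not differ beyond their spread. Among the kinases that switch the complex off, Pdk3 made up 77.7% ± 7.15, with medians of 38 and 39.4. Pdk1 had 8.66 and 8.28 and Pdk2 1.75 and 1.82. Per kb, Pdk3 was above Pdk1 in every embryo and Pdk1 above Pdk2 in 213. The exonic length is 2561 bases for Pdk3 and 7779 for Pdk1. Without division by length their average log2 CPM from edgeR was 6.62 and 6.08, and they did not differ beyond their spread.

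In the citric acid cycle Cs, the citrate synthase that opens it, had the highest level, with 11.5, 76 and 156.9 CPM per kb in HFD and 25.4, 87.6 and 169.1 in LFD embryos. Of the NAD-dependent isocitrate dehydrogenase, the catalytic subunit gene Idh3a had medians of 13.8 and 13.5, Idh3g 10.5 and 9.93 and Idh3b 2.55 and 2.98. Idh3a and Idh3g did not differ beyond their spread per kb, but did without division by length, and Idh3g exceeded Idh3b in 205 embryos. Idh2, the NADP-dependent mitochondrial form, had medians of 0.296 and 0.329 and a count in 149 embryos. Ogdh and Dlst of the oxoglutarate dehydrogenase complex had medians of 7.33 and 5.43 in HFD and 7.49 and 6.27 in LFD embryos, and their order reversed without division by length.

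Succinyl-CoA ligase pairs 1 alpha subunit, from Suclg1, with a beta subunit from Suclg2 or Sucla2. Suclg2 had 14.8, 30.1 and 65.1 CPM per kb in HFD and 12.2, 29.8 and 47.1 in LFD embryos, and Sucla2 had 3.0, 14.1 and 32.1 in HFD and 3.68, 14.4 and 26.8 in LFD embryos. Suclg1 had medians of 0.464 and 0.296, highest values of 4.12 and 3.37 and a count in 168 embryos. Sucla2 exceeded Suclg1 in every embryo, by 5.01 ± 1.54 on the log2 scale, so that the transcript of the shared alpha subunit was far below both beta subunits. Fh1 (fumarase) followed with medians of 3.39 and 3.83, and the malate dehydrogenases with 18.1 and 18.5 for the cytosolic Mdh1 and 24.6 and 27.8 for the mitochondrial Mdh2. Mdh1 and Mdh2 did not differ beyond their spread.

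When all 43 members were ordered by their mean log2 level, 2 of the 42 neighbouring pairs differed by more than 1 SD of their difference. These were Ldhb above Pkm (in every embryo) and Mpc1 above Pdhb (in all but 4 embryos). The other 40 steps of the order lay within the spread between embryos.

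Of 67 further genes of glucose and pyruvate metabolism, 46 were expressed by the same rule. Among them the subunits of succinate dehydrogenase, which works in the cycle and in the respiratory chain, had a median level over all embryos of 24.9 CPM per kb for Sdha, 2.15 for Sdhb, 3.24 for Sdhc and 4.0 for Sdhd. The 3 with the highest medians were G6pdx, which opens the pentose phosphate pathway (170.1), Bpgm, which makes 2,3-bisphosphoglycerate (140.5), and Gpd1l, which is related to glycerol-3-phosphate dehydrogenase (140.2). These 7 genes were chosen after their values were seen. Of the paralogs used by spermatogenic cells, Ldhc had a count in 173 embryos, Gapdhs in 151, Pgk2 in 148 and Pdha2 in 62. Their medians were 1.08, 0.355, 0.837 and 0 CPM per kb in HFD and 1.12, 0.528, 1.41 and 0 in LFD embryos. Ldhc and Pgk2 were tested between the diets and not called, and Gapdhs and Pdha2 did not pass the low-count filter. Slc16a8, listed with them, had a count in 28 embryos.

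The second question was whether the diet of the sire moved these transcripts. With edgeR at a false discovery rate (FDR) under 0.05 over all genes, 0 of 42 members were called, beside 2.15% of the 14820 genes tested. At an unadjusted p under 0.05 there were 5 members (11.9%), beside 13.1% of all genes. DESeq2 called 1 member, beside 3.12% of all genes, and limma-voom called 0, beside 2.23%, with 4 members (9.52%) at an unadjusted p under 0.05, beside 14.2%. The median log2 fold change of the 42 members, HFD over LFD, was -0.0031, beside 0.014 for all genes tested. Their fold changes ran from -0.20 for Gapdh to 0.25 for Suclg1, and the 95% interval lay within -0.5 and 0.5 for 39 of the 42. Slc16a3, Suclg1 and Idh2, the least abundant tested members, had the wider intervals. None of the 50 tested genes of the wider metabolic list was called, of which 4 had an unadjusted p under 0.05.

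**Figure D2:**
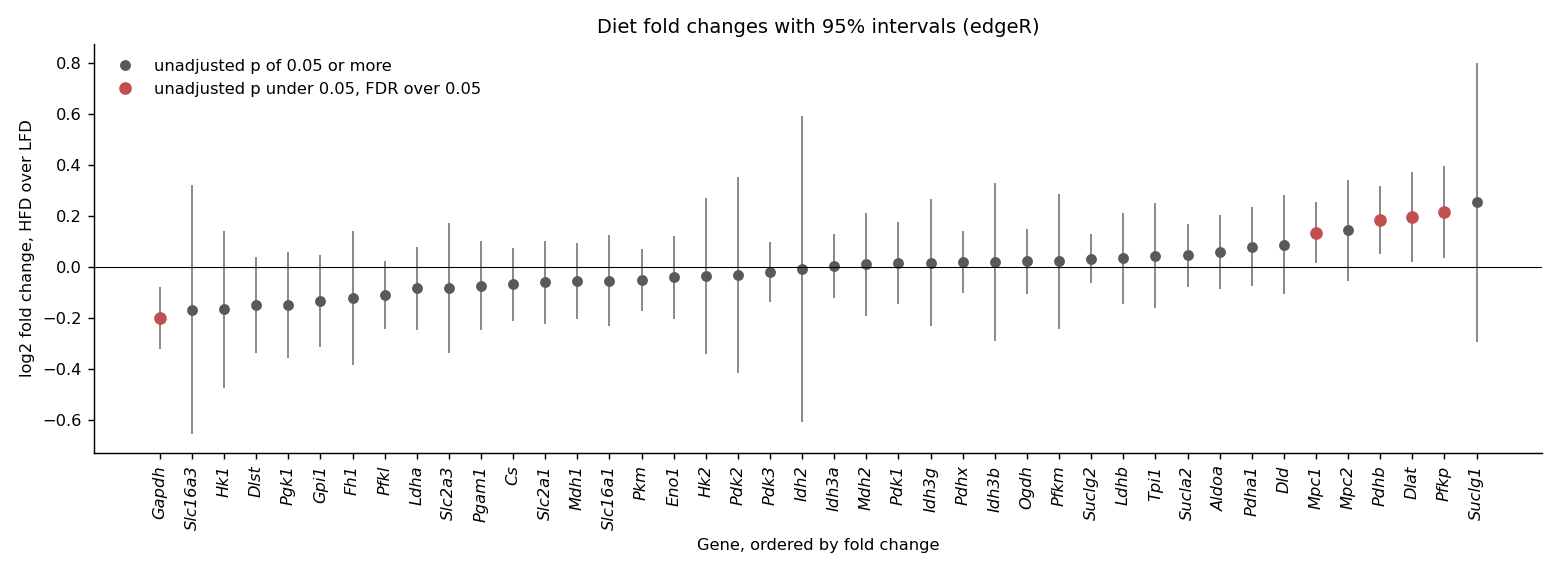
Log2 fold change of HFD over LFD embryos for the 42 tested members (points) with 95% intervals (bars) from edgeR, ordered by size. Red points have an unadjusted p under 0.05; none had an FDR under 0.05, and the extremes are Gapdh at -0.20 and Suclg1 at 0.25.

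Gapdh came nearest to a call. Its lowest, median and highest levels were 8.94, 24.2 and 45.7 CPM per kb in HFD and 8.26, 28.5 and 48.4 in LFD embryos. The groups overlapped over nearly their whole range, and 29.5% of HFD embryos lay above the LFD median. The log2 fold change was -0.20 (SE 0.06, 95% interval -0.32 to -0.08, edgeR FDR 0.0602). Gapdh was the member that DESeq2 called (-0.21, FDR 0.0256). In ranges of 10 consecutive embryo numbers HFD embryos had the lower mean in 8 of the 11 ranges that hold both diets. With these ranges as a covariate the fold change was -0.24 (edgeR FDR 0.0139). The order of submission falls into 4 runs, each of LFD and then HFD embryos, whose meaning the labels do not give. The HFD mean was the lower in 3 of the 4, and with the runs as a covariate the fold change was -0.21 (FDR 0.0371). Without the 38 HFD embryos numbered 31 to 70, it was -0.13 (FDR 0.481). Without the filter on low counts it was -0.21 (FDR 0.0119), beside 15.4% of all genes called. With the genome activation level as a covariate it was -0.17 (FDR 0.153).

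Pdhb had 10.8, 49.2 and 88.9 CPM per kb in HFD and 8.06, 42.4 and 77 in LFD embryos. It lay above the LFD median in 62.3% of HFD embryos, at 0.18 on the log2 scale (SE 0.07, edgeR FDR 0.152). Pfkp had 0.545, 3.24 and 7.52 in HFD and 0.261, 2.65 and 8.83 in LFD embryos, and 66.4% of HFD embryos lay above the LFD median (0.22, SE 0.09, FDR 0.248). Dlat gave 0.827, 7.11 and 25.5 against 2.84, 6.84 and 18 (0.20, SE 0.09, FDR 0.309). For all 3 genes the diets overlapped, and no more than 4 HFD embryos exceeded the highest LFD embryo.

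From the levels given above, the fold change of Mpc1 was 0.13 (SE 0.06, edgeR FDR 0.294). Without the HFD embryos numbered 31 to 70 it was -0.01 (FDR 0.983), so the value rested on those 38 libraries. Mpc2 stood at 0.14 (SE 0.10, FDR 0.583), and at -0.02 without them, and Gpi1 at -0.13 (SE 0.09, FDR 0.570), and at 0.01 without them.

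The other members named by their p-values were Pfkl (-0.11, SE 0.07, edgeR FDR 0.507), Dlst (-0.15, SE 0.10, FDR 0.535), Pgk1 (-0.15, SE 0.11, FDR 0.594), Hk1 (-0.17, SE 0.16, FDR 0.723) and Ldha (-0.08, SE 0.08, FDR 0.737). Hk1 had the opposite sign in limma-voom, at 0.0044. Ldhb, the most abundant member, had a log2 fold change of 0.03 with a 95% interval from -0.14 to 0.21.

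**Figure D3:**
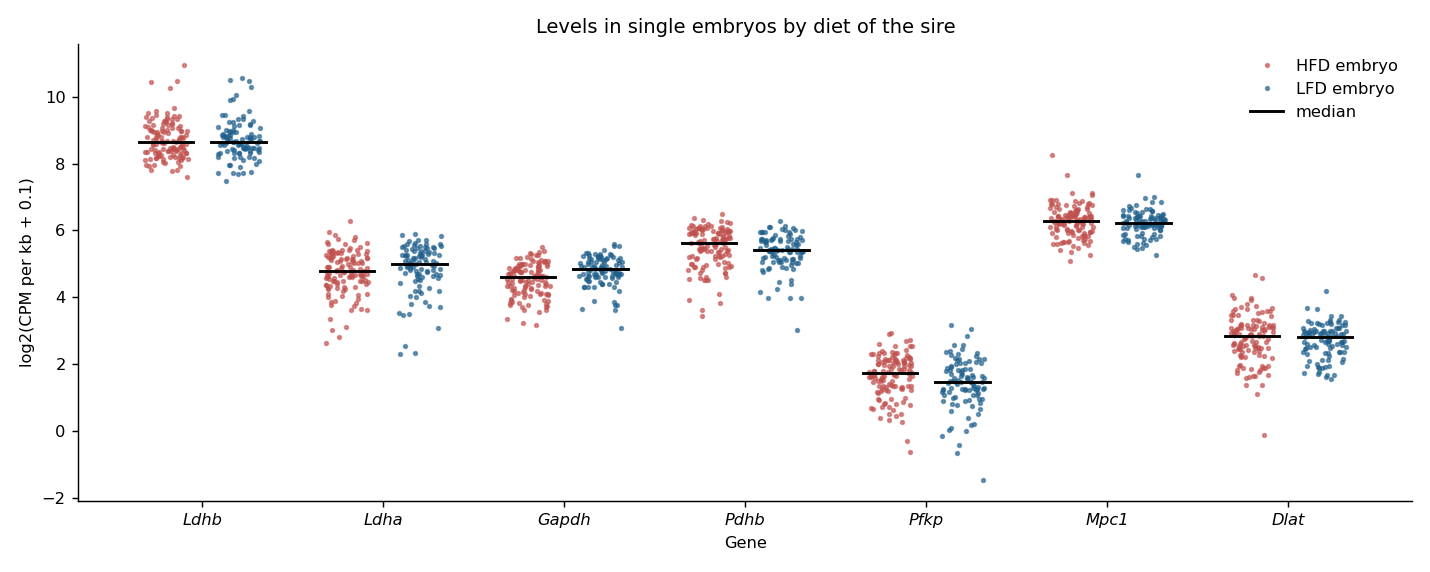
Level of Ldhb, Ldha and the 5 members with an unadjusted p under 0.05 between the diets, as log2(CPM per kb + 0.1); each point is 1 embryo (red HFD, blue LFD) and black lines are medians. Points of the 2 diets overlap for every gene, and Ldhb lies above Ldha in every embryo.

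Members also differed in how much they varied between embryos of the same diet. The biological coefficient of variation (BCV), the spread that edgeR estimates beyond counting error, was compared with the BCV usual for a gene of that abundance. The ratio was lowest for Suclg2 at 0.661 and Ogdh at 0.686 and highest for Hk1 at 1.43, Idh2 at 1.34 and Ldhb at 1.32. Over all tested genes the median ratio was 0.940, with a 10th percentile of 0.682 and a 90th of 1.30. Suclg2 was thus among the steadier genes, and Hk1 and Ldhb among the more variable. Members did not move as 1 block: over the 861 pairs of tested members, Spearman's rho of log2(CPM + 1) across all embryos had a median of 0.038, was above 0.3 in 13.1% of pairs and below -0.3 in 6.74%. The highest value was 0.774, for Mpc2 with Mdh2, followed by 0.633 for Cs with Dlst. The lowest was -0.730, for Mpc1 with Cs, followed by -0.593 for Ldhb with Slc16a1. These values describe embryos that share library totals, sires and dates, and pairs of other genes were not computed for comparison.

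The third question was whether members followed the state of the embryo. Genome activation was measured as the log2 ratio of summed 2-cell transcripts to summed oocyte transcripts, which was -1.41 ± 0.56 (SD) in HFD and -1.56 ± 0.40 in LFD embryos. With diet as a covariate, 8 of 42 members were called for a slope on this level, beside 23.6% of all genes tested. The median slope of the members was -0.02, beside -0.03 over all genes. Of the 8, 2 were positive and 6 negative, beside 11.7% of all genes called upward and 11.9% called downward.

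Pkm and Pdhb had positive slopes, of 0.22 (SE 0.07, edgeR FDR 0.00876) and 0.24 (SE 0.07, FDR 0.00515), in log2 units per log2 unit of the ratio. Between the 10th and the 90th percentile of the ratio, a width of 1.01, this comes to 1.17-fold and 1.18-fold. Negative slopes were found for Fh1 (-0.45, SE 0.13, FDR 0.00498), Cs (-0.42, SE 0.07, FDR 8.4e-07), Gapdh (-0.31, SE 0.06, FDR 2.1e-05) and Slc2a1 (-0.30, SE 0.09, FDR 0.00921). Dld (-0.29, SE 0.09, FDR 0.0114) and Gpi1 (-0.27, SE 0.11, FDR 0.0470) were also negative. Slc2a1 and Pkm thus had slopes of opposite sign, while over all genes calls also went both ways (11.7% upward and 11.9% downward).

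In HFD embryos alone 8 of 39 members were called, 6 of them among the 8 above, beside 24.5% of all genes, and in LFD embryos alone 0, beside 2.69%. The test of the difference between the diets called 0 members, and 0 of all genes. At an unadjusted p under 0.05 there were 2 members (4.76%), beside 6.07% of all genes. All 8 slopes kept their sign within each diet; in LFD embryos Cs had -0.22 (FDR 0.304) and Gapdh -0.22 (FDR 0.321). The count also moved with the way the ratio was built. With the Zscan4 genes left out of the 2-cell list 22 members were called, beside 44% of all genes, and with the oocyte transcripts alone, sign reversed, 29, beside 59.2%. Cs then reached a slope of -0.51 and -1.20, Pdhb of 0.46 and 0.95 and Pkm of 0.47 and 0.63. Gapdh was not called without the Zscan4 genes (-0.13, FDR 0.117), and Gpi1 was called in 1 of 10 alternatives and changed sign in 1, to 0.05. Without the 8 libraries with few genes, 6 members were called, beside 21% of all genes, and Slc2a1 was not among them (-0.18, FDR 0.0952). Fh1 was not called without the 2 embryos farthest from the median ratio (-0.38, FDR 0.0520), nor Dld in HFD embryos alone (-0.28, FDR 0.0669).

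The study drew attention to mitochondrial tRNAs (mt-tRNAs), so the slope of each member on the log2 of the summed mt-tRNA level was tested in the same way. In log2 CPM it averaged 9.03 ± 0.52 over HFD embryos against 8.66 ± 0.54 over LFD embryos. Of 42 members 14 were called, beside 36.8% of all genes. The median slope of the members was -0.08, beside 0.02 over all genes, and 10 of the 14 called slopes were negative, beside 16.1% of all genes called with a negative and 20.7% with a positive slope.

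Mpc1 rose with the mt-tRNA level (slope 0.34, SE 0.05, edgeR FDR 3.4e-09), as did Tpi1 (0.36, SE 0.10, FDR 0.00166), Idh3g (0.33, SE 0.12, FDR 0.0215) and Pdhb (0.30, SE 0.06, FDR 5.1e-05). Between the 10th and the 90th percentile of the level, a width of 1.33, the level of Mpc1 changed 1.37-fold and that of Pdhb 1.32-fold. The 4 lowest slopes were those of Dld (-0.46, SE 0.09, FDR 2.9e-06), Fh1 (-0.44, SE 0.12, FDR 0.00108), Dlst (-0.37, SE 0.09, FDR 0.000194) and Slc2a1 (-0.36, SE 0.08, FDR 4.4e-05). The remaining called members, all negative, were Dlat, Cs, Ldha, Sucla2, Pfkl and Pkm, from -0.35 to -0.16. Of the pyruvate dehydrogenase complex, Pdhb was called with a positive slope and Dlat and Dld with negative ones. Its other subunits, Pdha1 (0.04, SE 0.08, FDR 0.727) and Pdhx (-0.01, SE 0.06, FDR 0.920), were not called.

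**Figure D4:**
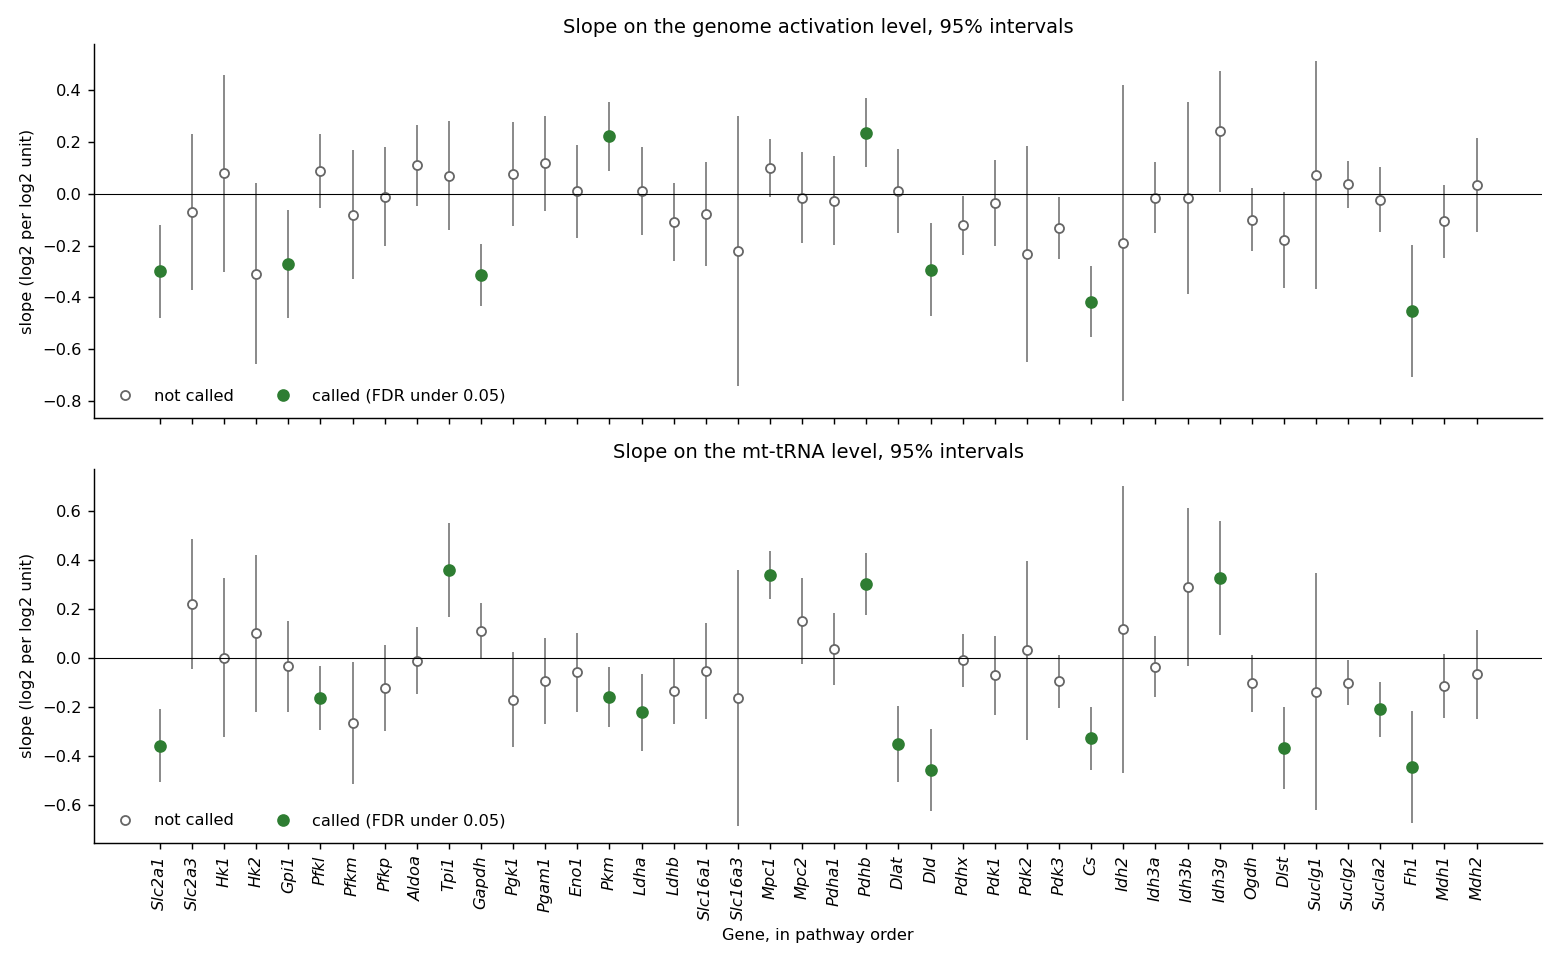
Slope of each tested member (log2 units per log2 unit) on the genome activation level (upper panel) and on the mt-tRNA level (lower panel), with 95% intervals; filled green points were called at an FDR under 0.05. Cs, Dld, Fh1 and Slc2a1 are negative and Pdhb is positive in both panels, while Pkm is positive in the upper and negative in the lower.

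Of the 14, Mpc1, Pdhb, Slc2a1, Cs, Dld and Dlst were called under all 9 alternatives. Tpi1 depended on mt-Ts1, the tRNA gene that holds most mt-tRNA counts: without it the slope was -0.10 (edgeR FDR 0.334), and Dlat, Ldha, Sucla2 and Pkm were not called either, so that 5 of the 14 calls were lost, while 16 members in all were called, beside 30.3% of all genes. On the macrophage marker level 5 members were called, beside 9.12% of all genes: Tpi1, Pdhb and Aldoa with positive and Dlat and Sucla2 with negative slopes. With that level as a covariate 13 members had a called mt-tRNA slope, beside 32.4% of all genes. In HFD embryos alone 12 of 39 were called, beside 26.3%, and in LFD embryos alone 10 of 39, beside 26.6%. The test of the difference between the diets called 0 members, beside 0.108% of all genes. At an unadjusted p under 0.05 there were 4 of 42 members (9.52%), beside 6.41% of all genes.

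Pgk1, Pdha1, Pdk3 and Idh3g lie on the X chromosome. The labels do not give the sex of an embryo and none was assigned, and each gene's slope on the summed level of Y-linked transcripts was fitted instead. Called were 5 of 42 members, beside 1.65% of all genes, and the 5 included all 4 X-linked members, each with a negative slope. Of 486 tested X-linked genes 43.8% were called with a negative slope, and of 14300 autosomal genes 0.0979%, with 0.105% called with a positive one. The median slope was -0.07 over X-linked genes and 0.00075 over autosomal genes.

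Pgk1 had a slope of -0.12 (SE 0.02, edgeR FDR 3.4e-09), Idh3g of -0.11 (SE 0.02, FDR 0.000104), Pdha1 of -0.08 (SE 0.01, FDR 2.8e-07) and Pdk3 of -0.04 (SE 0.01, FDR 0.0177), per log2 unit of the Y-linked level. From the 10th to the 90th percentile of that level, from -0.28 to 6.56 log2 CPM, the levels changed to 0.566 of their value for Pgk1, 0.606 for Idh3g, 0.688 for Pdha1 and 0.836 for Pdk3. The autosomal Idh3b had a positive slope (0.09, SE 0.03, FDR 0.0298). Pgk1 and Pdha1 were called in each diet alone, beside 1.10% of all genes in HFD and 0.973% in LFD embryos. Idh3g and Pdk3 were called in LFD embryos alone and not in HFD embryos alone (-0.10, FDR 0.0610, and -0.03, FDR 0.773), a difference that was not tested, and Idh3b in neither diet. The X-linked genes of the wider list, G6pdx (-0.03, SE 0.02, FDR 0.447) and Pfkfb1 (-0.04, SE 0.02, FDR 0.448), were not called. Pgk1 shares sequence with its copies as given above, and 16.1% of the exons of Pdha1 lie opposite to Map3k15.

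**Figure D5:**
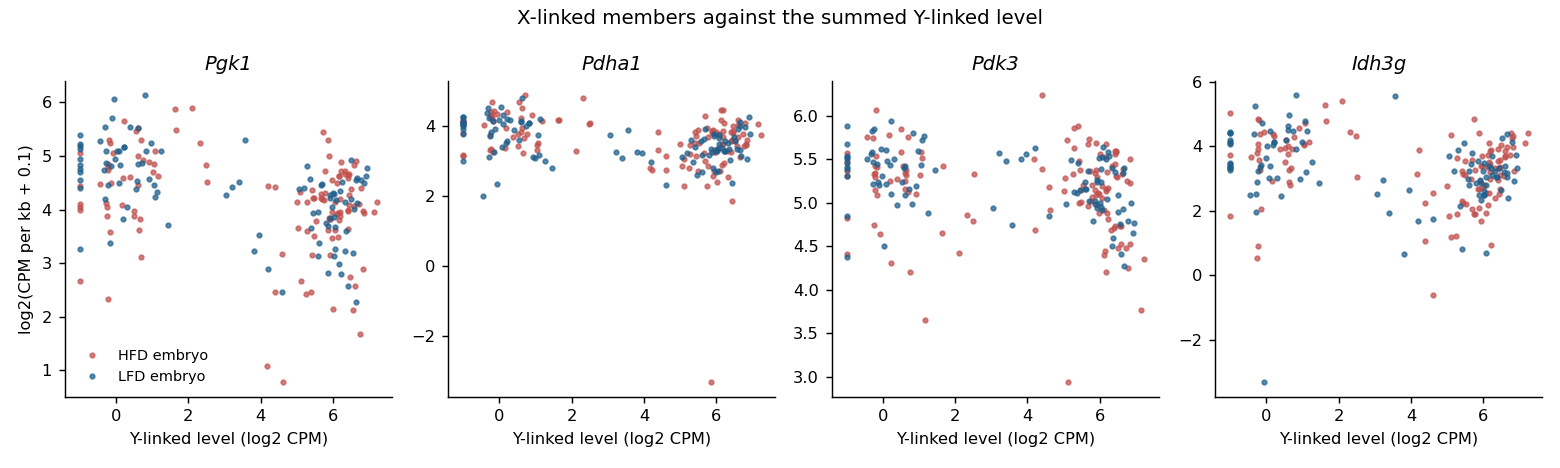
Level of the 4 X-linked members, as log2(CPM per kb + 0.1), against the summed Y-linked level of the same embryo (log2 of CPM with 0.5 added); each point is 1 embryo (red HFD, blue LFD). Embryos form a low and a high cloud on the Y-linked axis, and the slopes are -0.12 for Pgk1, -0.08 for Pdha1, -0.04 for Pdk3 and -0.11 for Idh3g.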

How the data were processed

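Single early 2-cell embryos were profiled by Smart-seq2 with paired reads. The deposited values are raw counts per gene. Per the study's methods and the submitters' processing notes, the authors removed adaptors with Trim Galore 0.6.6 and aligned reads with STAR 2.7.10a to GRCm38 carrying the Staudach mitochondrial sequence. Per the file headers, featureCounts 2.0.3 counted reads over Ensembl 102 exons with strand setting 2, although Smart-seq2 does not mark strand; each read of a pair was counted by itself, so 65.8% of the counts above 0 were even, and reads with several targets were left out.

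Here edgeR 4.0.16 (quasi-likelihood test, TMM, filterByExpr by diet; R 4.3.3) was run on all genes with Benjamini-Hochberg adjustment and an FDR threshold of 0.05. DESeq2 1.42.0 and limma 3.58.1 served as alternatives. The standard error (SE) of a fold change was its size divided by the square root of F, and 95% intervals followed from the SE. Slopes were fitted with diet as a covariate on levels summed as CPM (0.5 added), leaving out the genes that make up the level. Log2 levels used a pseudocount of 0.1. Shared sequence was measured as stretches of 31 bases in GENCODE M21 transcripts. The script was tested on simulated data. Levels and figures were made in Python 3.11.15 (pandas 2.3.3, matplotlib 3.10.9, numpy 2.4.6). Groups came from sample titles; a chi-square comparison of the 50 most similar pairs of libraries gave at least 16.5 per gene, so none was merged. The libraries carry no molecular identifiers, so counts are not molecules, and errors were taken from the spread between embryos.

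The members and lists were chosen with earlier results of these data known. Diet statistics are given for all called members and those with the smallest p, to 12 in all; for each slope, the 4 highest and the 4 lowest slopes among called members and all X-linked members; levels for every member of a paralog group. H1foo of the oocyte list had no row under that symbol.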

Additional observations from a re-analysis of the deposited data

How the results depend on the processing

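The count of members called by diet was 0 and became 1, Gapdh, under 11 of 16 alternatives: DESeq2, RLE size factors, no low-count filter (beside 15.4% of all genes), number ranges as a covariate or as a random effect in limma-voom, submission runs as a covariate, the macrophage or the Y-linked level as a covariate, without libraries under 15000 genes, embryos with shared numbers, and the same with the embryo number as a block. The fold change of Gapdh ran from -0.31 to -0.13 over the 16 (FDR from 0.00392 to 0.481).

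Embryo numbers shared by the diets (94 pairs) only name embryos: deviations of the pairs had a median correlation of 0.011, 20 pairs were over 0.1, and 1 HFD embryo correlated best with its own number. With the number as a block, whose dispersions were estimated without it, 1 member was called, as without the block on the same embryos.

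Without HFD embryos 31 to 70 the fold change turned to -0.0107 for Mpc1, 0.0097 for Gpi1 and -0.0195 for Mpc2. For Hk1 it turned to 0.0044 in limma-voom and 0.0052 with the number ranges of each diet as a random effect. Members called on the activation level numbered 0 in LFD embryos alone, 22 without the Zscan4 genes and 29 with oocyte transcripts alone, against 8. The shares over all genes moved as well, to 2.69%, 44% and 59.2%, against 23.6%. On the Y-linked level 2 members were called in HFD embryos alone, beside 1.10% of all genes, against 5, beside 1.65%. Without division by length, Dld minus Ogdh turned to -0.27 and Ogdh minus Dlst to -0.41. A further 5 orders kept their sign but crossed 1 SD of their difference. Pfkl over Pfkp, Pdk3 over Pdk1 and Slc16a3 over Slc16a7 fell within it, and Pfkp over Pfkm and Idh3a over Idh3g rose beyond it. The other 34 alternative counts stayed within 1.5 times. The count on the mt-tRNA level lay between 10 and 16, against 14, beside 36.8% of all genes. It was 10 in LFD embryos alone (beside 26.6%) and 16 without mt-Ts1 (beside 30.3%). Without libraries under 15000 genes it was also 16, with 2806 genes up and 2676 down of 14897. A mean of at least 5 CPM per kb left 31 members expressed, against 39. The causes were not tested. The alternatives with the 2 embryos farthest from the median level left out, with macrophage covariates in slopes, with number ranges of each diet, with submission runs, and with shared numbers and no block were chosen after seeing the data. Depth limits Slc16a3, Slc16a7, Idh2 and Suclg1, with a median of at most 15 counts.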
